A study of Homo sapiens with 4 samples.

Results

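The Aurora kinases, the chromosomal passenger complex and the spindle assembly checkpoint were examined here as 10 genes: AURKA, AURKB, BIRC5, CDCA8, INCENP, BUB1, BUB1B, BUB3, MAD2L1 and TTK. Members were chosen by name, with earlier results of these data known. Each was read by every probe set whose platform annotation gave that symbol alone. This gave 27 of 54613 probe sets, control probe sets aside, and 10 of the 19775 genes with a probe set of their own. Total RNA came from CaSki, a squamous carcinoma line of the uterine cervix that carries human papillomavirus, and was hybridized to 4 Affymetrix HG-U133 Plus 2.0 arrays. On 2 arrays the cells carried GFP as the control, and on 2 they were labelled as carrying ZNF750, a transcription factor that promotes epidermal differentiation. Both coding sequences were delivered by lentivirus, so the control cells were transduced too. The labels describe biological duplicates of 1 line and do not say how the cultures were separated, so the p-values measure the spread between these arrays. The question of the study was which genes ZNF750 regulates in squamous carcinoma cells.

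AURKA acts at centrosomes and spindle poles. AURKB is the enzyme of the chromosomal passenger complex, in which INCENP is the scaffold and BIRC5 (survivin) and CDCA8 (borealin) bring the complex to the centromere. The complex corrects faulty attachments of microtubules to kinetochores. Kinetochores without attachment recruit TTK, BUB1, BUB1B, BUB3 and MAD2L1, and the checkpoint that these form holds CDC20 inactive and delays anaphase until every chromosome is attached. Transcripts of most of these genes are low in quiescent cells and peak in G2 and mitosis. Many such genes carry near their start a CHR (cell cycle genes homology region), an element to which MuvB complexes bind, often with CCAAT boxes upstream.

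The promoters are shown as a description, and a link between their letters and the differences of the members was not tested. The RefSeq promoter table (GRCh38.p14; 250 bases before to 50 after each gene start) held 6 of the 10 members: AURKB (with 2 starts), CDCA8, INCENP, BUB1, BUB1B and MAD2L1. The CHR was searched on both strands in 4 spellings: as TTTGAA, its usual form, or with changed letters as TTCGAA, or as TTTAAA, or else as CTTGAA. The CCAAT box was searched likewise. A CHR spelling was found in 5 of the 6 genes, close to the start in each. The share of all promoters with any of the 4 spellings was not computed. In the 4 genes with TTTGAA the match lay on the gene's own strand. TTCGAA, found in BUB1, reads the same on both strands, so its match has no strand. The 30 bases around each are given 5′ to 3′ on the gene strand, with the CHR letters in capitals.
CDCA8 (chr1:37692481-37692510, plus strand): gtgactgtggagTTTGAAttgggtggcggt
INCENP (chr11:62123989-62124018, plus strand): tgagccttcagtTTTGAAaatcatagtttt
BUB1B (chr15:40161034-40161063, plus strand): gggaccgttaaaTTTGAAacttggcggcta
MAD2L1 (chr4:120066807-120066836, minus strand): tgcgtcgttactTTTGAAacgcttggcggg
BUB1 (chr2:110678045-110678074, minus strand): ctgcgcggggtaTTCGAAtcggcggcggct

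The match began at base -23 in CDCA8 and BUB1B, -10 in INCENP, 2 in BUB1 and 25 in MAD2L1, counted from the gene start with the first transcribed base as 1. TTTGAA was present on either strand in 15.2% of the 35116 promoters of the table, and in 1.57% on the gene strand with its first base within 30 bases of the start. TTCGAA, the spelling in BUB1, was present in 1.45% of promoters. TTTAAA (12.2%) and CTTGAA (11.2%) were in none of the member windows, and neither AURKB window held any of the 4 spellings. CCAAT was present on either strand in 34.6% of promoters and in 5 of the 6 members, BUB1B being without it. A match describes the letters only and is no evidence of binding.

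CDCA8 and INCENP, 2 subunits of the same complex, both had the CHR letters and 3 CCAAT boxes, which 3.26% of promoters had in that number or more. They are printed because their expression differed as described further on. The 250 bases before each start follow, with TTTGAA in capitals and likewise each CCAAT box, which reads ATTGG where it lies on the other strand. In CDCA8 the TTTGAA and the last ATTGG share 1 base.
CDCA8 (chr1:37692266-37692515, plus strand): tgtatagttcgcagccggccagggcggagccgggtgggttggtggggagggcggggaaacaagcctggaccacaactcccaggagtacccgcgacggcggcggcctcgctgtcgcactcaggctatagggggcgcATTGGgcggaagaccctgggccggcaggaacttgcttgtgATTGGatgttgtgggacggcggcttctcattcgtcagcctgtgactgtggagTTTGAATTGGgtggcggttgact
INCENP (chr11:62123761-62124010, plus strand): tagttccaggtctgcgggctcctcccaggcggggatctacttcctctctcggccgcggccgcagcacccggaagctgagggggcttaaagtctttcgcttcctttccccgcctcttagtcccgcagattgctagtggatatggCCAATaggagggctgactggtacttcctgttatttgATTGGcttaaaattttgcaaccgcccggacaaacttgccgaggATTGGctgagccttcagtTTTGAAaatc

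The values are the authors' log2 expression values from RMA, and all differences are ZNF750-labelled minus GFP on that log2 scale. The introduced gene could not be used to check the labels: its only probe set was near the lowest value in the table on every array (log2 2.13 and 2.37 with GFP, 2.23 and 2.29 with ZNF750). Array medians lay between 5.45 and 5.51. The 9 of 12 listed epithelial markers with a probe set of their own had median levels of 11.76 with GFP and 12.36 with ZNF750; 3 rose and 2 fell, with a median difference per gene of 0.16. Medians for fibroblast (6 markers), leukocyte (3) and endothelial (3) markers lay between 4.22 and 5.51 in both groups, about at or below the median of all probe sets (5.47), although COL1A1 lay at 8.09 to 8.55. The ACTB 3′ minus 5′ difference, which tracks RNA integrity and labelling, was 3.03 and 2.81 on the GFP arrays and 3.76 and 3.35 on the ZNF750-labelled arrays. The GAPDH 3′ minus 5′ difference was 0.63 and 0.61 with GFP and 0.85 and 0.80 with ZNF750. The bioB control probe sets averaged 8.75 and 8.83 with GFP and 9.10 and 9.28 with ZNF750. The part that these shifts have in the differences given here was not tested.

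In the ZNF750-labelled arrays both Aurora kinases and the passenger complex subunits CDCA8 and BIRC5 fell, by 1.25-fold to 1.84-fold in the brightest probe set of each, while the subunit INCENP did not pass. Among checkpoint genes BUB1 and BUB1B fell, whereas TTK and most probe sets of BUB3 did not pass. In all, 12 of the 27 member probe sets fell and 0 rose (limma, Benjamini-Hochberg adjusted p under 0.05; 0 also rose at an unadjusted p under 0.05). Of all probe sets tested, 7.19% were called lower and 4.3% higher. All 12 calls lay among the 21 member probe sets brighter than the median of the table, where 13.6% of all probe sets were called lower. This share rose with level, and most of the calls lay at high levels. In the brightest of 20 bins of level, at about log2 8.87, 9.69 and 11.10, it was 18.8%, 22.1% and 28.2%. Median differences in those bins were -0.05, -0.05 and -0.07. The median difference was -0.27 over the 27 member probe sets and 0.03 over all probe sets. At least 1 probe set fell for 8 of the 10 members, the exceptions being INCENP and TTK. The share of all genes with at least 1 lower probe set was not computed. BUB3 was counted by 1 of its 6 probe sets and MAD2L1 by 1 of 3, and the brightest of each did not pass. By the brightest probe set of each gene 6 of the 10 members fell, against 8.75% of all genes. RNA of a whole culture was measured, so fewer cells in G2 and mitosis cannot be told apart from less RNA per cell.

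**Figure D1:**
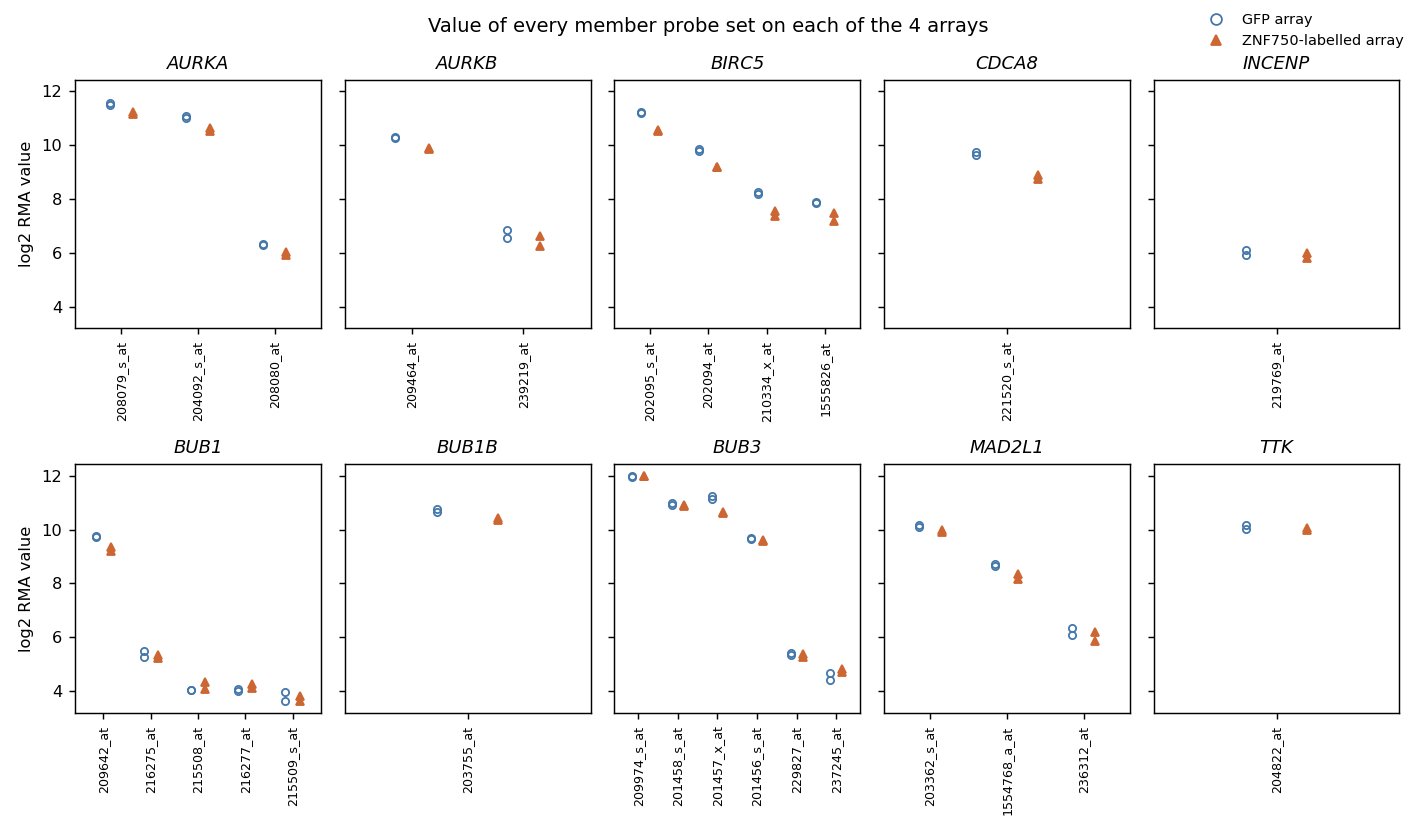
Log2 RMA value (vertical axis) of each member probe set (horizontal axis, brightest first) on the 4 arrays, with open circles for GFP and triangles for ZNF750-labelled arrays. All 4 BIRC5 probe sets and the CDCA8 probe set separate the groups, whereas the TTK and INCENP groups overlap.

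CDCA8 had the largest difference of the members. Its probe set 221520_s_at read 9.64 and 9.74 on the GFP arrays and 8.75 and 8.87 on the ZNF750-labelled arrays. Both ZNF750-labelled arrays lay below both controls, a 1.84-fold lower level (-0.88 ± 0.068, limma standard error, n = 2 arrays per group as throughout; adjusted p = 0.000726). Borealin has only this probe set here, and its suffix, _s_at, marks probes that can match more than 1 transcript.

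BIRC5, which encodes survivin, the subunit that docks the complex at centromeric histone H3, fell on all 4 of its probe sets. The brightest, 202095_s_at, read 11.17 and 11.23 with GFP and 10.56 and 10.52 with ZNF750, which is 1.58-fold lower (-0.66 ± 0.046; adjusted p = 0.000521). Probe set 202094_at read 9.78 and 9.85 with GFP and 9.19 and 9.17 with ZNF750 (-0.64 ± 0.056; adjusted p = 0.00122). The groups of these probe sets stood well apart, each ZNF750-labelled array lying below both controls. The 2 dimmer probe sets gave differences of -0.74 ± 0.087 (210334_x_at, adjusted p = 0.00324) and -0.53 ± 0.10 (1555826_at, adjusted p = 0.0186). BIRC5 was the only member with more than 1 probe set for which all of them fell.

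AURKB, the kinase of the complex, was read at 10.30 and 10.27 with GFP and at 9.84 and 9.89 with ZNF750 on its bright probe set 209464_at. The groups did not overlap, and the level was 1.34-fold lower (-0.42 ± 0.051; adjusted p = 0.00344). Its other probe set, 239219_at, read 6.55 and 6.85 with GFP and 6.25 and 6.61 with ZNF750. These groups overlapped, and the difference of -0.27 ± 0.15 did not pass (adjusted p = 0.303).

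INCENP, the scaffold that binds and activates Aurora B, was read by 1 probe set, 219769_at, at 5.90 and 6.10 with GFP and 5.79 and 5.98 with ZNF750. The groups overlapped and the difference was -0.11 ± 0.12 (adjusted p = 0.614). This probe set was only a little brighter than the median of the table (5.47), and RMA understates differences at low signal. CDCA8 differed by 0.77 log2 units more than INCENP in the direction of a fall (-0.77, combined standard error 0.14), BIRC5 by 0.55 (-0.55, 0.13). Against AURKB the same contrasts were -0.46 (0.085) for CDCA8 and -0.24 (0.069) for BIRC5. In each of these 4 contrasts the within-array values of the groups did not overlap, and the same held for every contrast between probe sets given below. The share of other probe set pairs without overlap was not computed. Of all single probe sets, 24.3% were lower and 29.9% higher without overlap. The combined standard error takes the probe sets of a contrast as independent, although they were read on the same arrays. An exact permutation test of 2 arrays against 2 cannot give a two-sided p below 0.333, so the contrasts are descriptions.

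AURKA, the spindle pole kinase, had 2 bright probe sets, and both fell. The brighter, 208079_s_at, read 11.56 and 11.49 with GFP and 11.24 and 11.17 with ZNF750, 1.25-fold lower (-0.32 ± 0.047; adjusted p = 0.00683). Probe set 204092_s_at read 11.08 and 11.00 with GFP and 10.63 and 10.52 with ZNF750, 1.38-fold lower (-0.46 ± 0.056; adjusted p = 0.00354). Both separated the groups, and both end in _s_at. AURKA also has a processed pseudogene copy, so which transcripts these probes read is uncertain. The third probe set, 208080_at, read 6.34 and 6.27 with GFP and 5.91 and 6.01 with ZNF750, and its difference of -0.35 ± 0.099 was of like size but did not pass (adjusted p = 0.0668). It passed with dim probe sets left out (adjusted p = 0.0379). The brightest probe sets of AURKB and AURKA differed in their response by -0.10 with a combined standard error of 0.069.

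**Figure D2:**
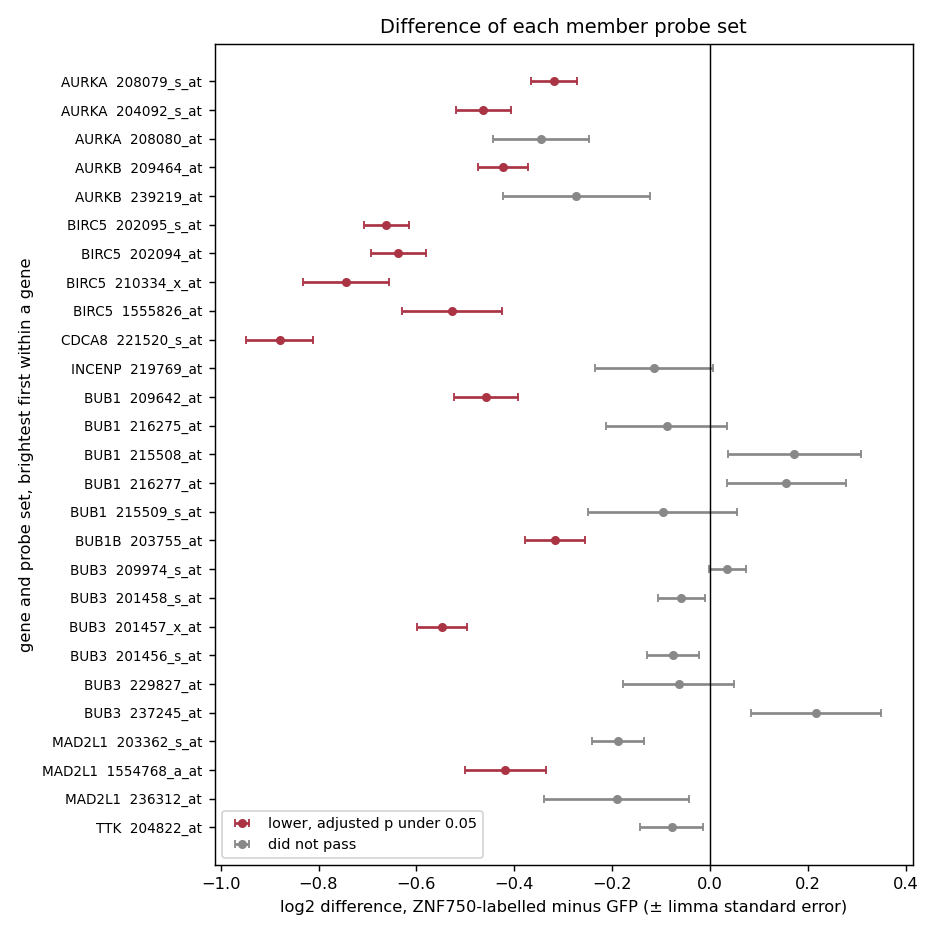
Log2 difference, ZNF750-labelled minus GFP (horizontal axis), with limma's standard error as bars, for the 27 member probe sets grouped by gene. The 12 probe sets that fell (red) run from -0.88 for CDCA8 to -0.32 for BUB1B, and those of BUB3 lie between -0.08 and 0.22 with the exception of 201457_x_at.

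BUB1 is a kinase that marks centromeric histone H2A and so helps place the passenger complex. Its bright probe set, 209642_at, read 9.74 and 9.76 with GFP and 9.36 and 9.22 with ZNF750, and was 1.37-fold lower with no overlap (-0.46 ± 0.065; adjusted p = 0.00587). The other 4 BUB1 probe sets were dimmer than the median of the table, with values from 3.62 to 5.49. Their differences ran from -0.10 to 0.17, and none of the 4 passed. The mean of the 5 probe sets therefore gave only -0.06 (adjusted p = 0.689).

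BUB1B encodes BUBR1, a subunit of the mitotic checkpoint complex that binds CDC20. Its only probe set, 203755_at, read 10.77 and 10.64 with GFP and 10.43 and 10.35 with ZNF750. The groups did not overlap, and the level was 1.25-fold lower (-0.32 ± 0.060; adjusted p = 0.0169). The response of BUB1 differed from that of BUB1B by -0.14 (combined standard error 0.089).

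TTK, also called MPS1, is the kinase that starts checkpoint signalling at unattached kinetochores. Its only probe set, 204822_at, was bright and read 10.16 and 10.02 with GFP and 10.05 and 9.98 with ZNF750. The groups overlapped and the difference was -0.08 ± 0.064 (adjusted p = 0.493). BUB1 differed from TTK by -0.38 (combined standard error 0.091), and the within-array values of the groups did not overlap.

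BUB3, the WD-repeat protein that carries BUB1 and BUBR1 to the kinetochore, had 6 probe sets that disagreed. The brightest, 209974_s_at, read 11.98 and 11.93 with GFP and 12.00 and 11.98 with ZNF750 (0.04 ± 0.038; adjusted p = 0.623). Probe sets 201458_s_at (-0.06 ± 0.047) and 201456_s_at (-0.08 ± 0.053) were also bright and did not pass. In contrast 201457_x_at read 11.23 and 11.13 with GFP and 10.61 and 10.65 with ZNF750, 1.46-fold lower (-0.55 ± 0.051; adjusted p = 0.00143). The suffix _x_at marks probes that can cross-hybridize with other sequences, and the probe positions were not used here. Its difference exceeded that of 201458_s_at, of about the same brightness, by -0.49 (combined standard error 0.069), so the 1 call for BUB3 was not shared by the gene's other probe sets. The 2 dim probe sets gave -0.06 ± 0.11 and 0.22 ± 0.13.

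MAD2L1 encodes MAD2, which changes shape at the kinetochore and captures CDC20. The brightest probe set, 203362_s_at, read 10.17 and 10.10 with GFP and 9.92 and 9.97 with ZNF750. The groups did not overlap, but the difference of -0.19 ± 0.053 did not pass (adjusted p = 0.0633). It passed with dim probe sets left out (adjusted p = 0.0355) and with 1 probe set tested per gene (adjusted p = 0.0408). Probe set 1554768_a_at read 8.66 and 8.70 with GFP and 8.16 and 8.36 with ZNF750 and was 1.34-fold lower (-0.42 ± 0.082; adjusted p = 0.0189). The remaining probe set, 236312_at, gave -0.19 ± 0.15 with overlapping groups (adjusted p = 0.473).

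**Figure D3:**
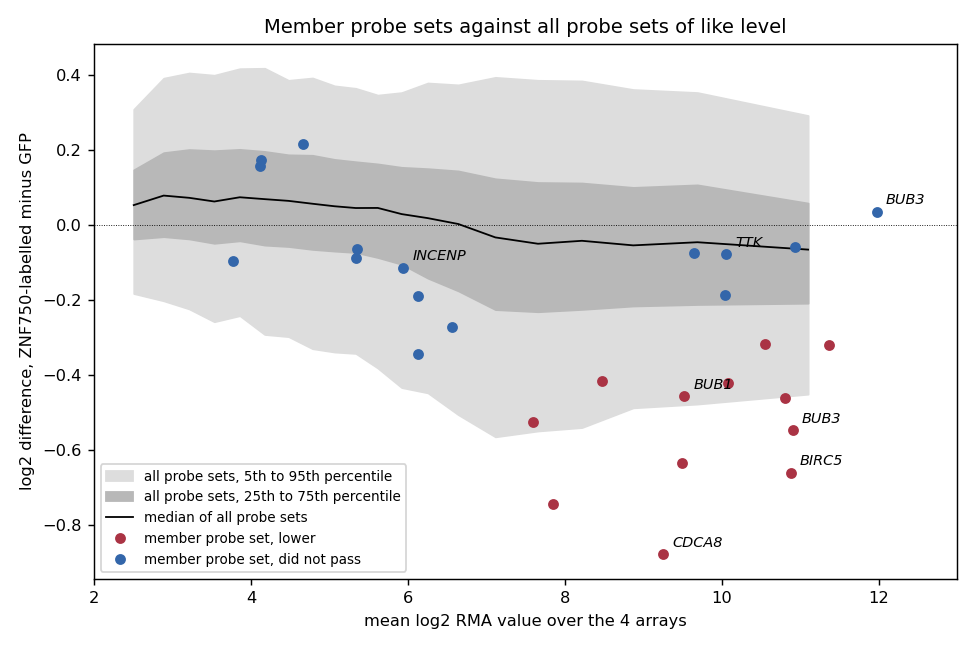
Log2 difference, ZNF750-labelled minus GFP (vertical axis), against mean log2 RMA value over the 4 arrays (horizontal axis) for the 27 member probe sets, over shaded bands for all probe sets in 20 bins of level. CDCA8 (-0.88) and BIRC5 (-0.66) lie below the 5th percentile of probe sets of like level, and TTK (-0.08) lies close to the median line.

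Without overlap between groups, 16 member probe sets were lower and 4 higher, against 24.3% and 29.9% of all probe sets. The 12 calls rested on having both GFP arrays. With either GFP array left out 0 member probe sets fell, while only 1 of all probe sets tested was then called lower. The count was 7 when ZNF750 replicate 1 was dropped and 5 when ZNF750 replicate 2 was. The differences of the 12 probe sets stayed negative in each of these fits. When limma's variance model had no intensity trend, 5 member probe sets fell, of CDCA8, BIRC5 and BUB3 (201457_x_at), and those of AURKA, AURKB, BUB1, BUB1B and MAD2L1 did not pass.

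Genes that work with the members were taken from a list of 33, of which 32 had a probe set of their own. This list too was chosen with earlier results of these data known. Each gene was read by its brightest probe set. The count was 16 lower and 2 higher among the 32, the other 14 not passing, and the median difference was -0.28. Over all 19775 genes read the same way, 8.75% were called lower and 6.39% higher, with a median of 0.04. Of the 10 members read in this way, 6 fell and 0 rose, with a median of -0.32. Of these brightest probe sets, 1 of the 32 and 0 of the 10 were dimmer than the median of the table. Among the 10353 brighter genes with a promoter in the RefSeq table, 13.7% were lower and 8.72% higher, with a median of -0.0012. The list counts depended on the arrays as the member counts did: 0 genes of the list fell with either GFP array left out, 9 when ZNF750 replicate 1 was dropped and 6 when ZNF750 replicate 2 was.

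Several partners of Aurora A in that list fell. TPX2, which binds Aurora A, activates it and targets it to spindle microtubules, read 10.29 and 10.26 with GFP and 9.41 and 9.46 with ZNF750, 1.79-fold lower (-0.84 ± 0.052; adjusted p = 0.000363). BORA, a cofactor through which Aurora A activates PLK1, was 1.58-fold lower (-0.66 ± 0.082), and PLK1, the polo-like kinase, 1.60-fold lower (-0.67 ± 0.083; adjusted p = 0.00377). CEP192, a centrosomal platform for Aurora A, differed by -0.57 ± 0.11 and AJUBA by -0.35 ± 0.046, both passing, although of the 4 AJUBA probe sets 2 passed. All of these genes had their groups apart and lower with ZNF750, as had 24.3% of all probe sets. AURKC, the third Aurora kinase, lay at 5.38 to 5.68 on the 4 arrays and did not pass (-0.13 ± 0.12).

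Placement factors and partners of the passenger complex gave mixed results. HASPIN, the histone H3 kinase that creates the docking site of survivin, differed by -0.47 ± 0.13 (adjusted p = 0.0544), and passed after cyclic loess, a second quantile normalization and centring on brighter probe sets. Of the shugoshins, SGO2 fell (-0.40 ± 0.073) on 1 of its 2 probe sets and SGO1 gave 0.06 ± 0.092. KIF20A, the kinesin that moves the complex to the central spindle, read 9.74 and 9.71 with GFP and 9.19 and 9.17 with ZNF750, a fall of 0.54 log2 units (-0.54 ± 0.054). KIF2C, a microtubule depolymerase regulated by Aurora B, fell on both of its probe sets (-0.57 ± 0.054 on the brighter).

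Downstream of the checkpoint, its target CDC20 read 11.61 and 11.69 with GFP and 11.05 and 11.07 with ZNF750 and was 1.51-fold lower (-0.59 ± 0.045; adjusted p = 0.00071). PTTG1, the securin that is destroyed when the checkpoint is satisfied, was 1.49-fold lower (-0.58 ± 0.037; adjusted p = 0.0004). Its only probe set, 203554_x_at, has the suffix that marks possible cross-hybridization. So do the brightest probe sets of PKMYT1, CDT1, ORC6 and FOXM1, which are described further on. The groups of CDC20 and of PTTG1 did not overlap and were lower with ZNF750, as in 24.3% of all probe sets. ESPL1, encoding separase, gave -0.24 ± 0.068 (adjusted p = 0.0661) on its brightest probe set and fell on the other, of like brightness (-0.23 ± 0.056; adjusted p = 0.0394).

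Factors upstream of MAD2 and at the outer kinetochore were less uniform. MAD1L1, the partner that holds MAD2 at kinetochores, gave -0.12 ± 0.076 (adjusted p = 0.364). TRIP13 and MAD2L1BP, which together take MAD2 out of the checkpoint complex, differed by -0.18 ± 0.037 and -0.26 ± 0.060 and passed, but neither passed after cyclic loess, a second quantile normalization or centring on brighter probe sets. CENPE (-0.59 ± 0.088), a kinetochore kinesin, SPC25 (-0.61 ± 0.084), SPDL1 (-0.53 ± 0.10) and KNL1 (-0.27 ± 0.059), the scaffold that BUB1 and BUBR1 bind, fell. SPDL1 did so on 1 of its 2 probe sets and KNL1 on 3 of 4. NDC80 (-0.17 ± 0.12), NUF2 (-0.31 ± 0.14) and SPC24 (-0.23 ± 0.063), which with SPC25 form the NDC80 complex, did not pass. The 2 genes that rose were ZWINT (0.24 ± 0.035; adjusted p = 0.00693), a KNL1 partner, and CUEDC2 (0.29 ± 0.070; adjusted p = 0.0368). ZWINT read 11.96 on both GFP arrays and 12.20 and 12.19 on the ZNF750-labelled arrays.

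**Figure D4:**
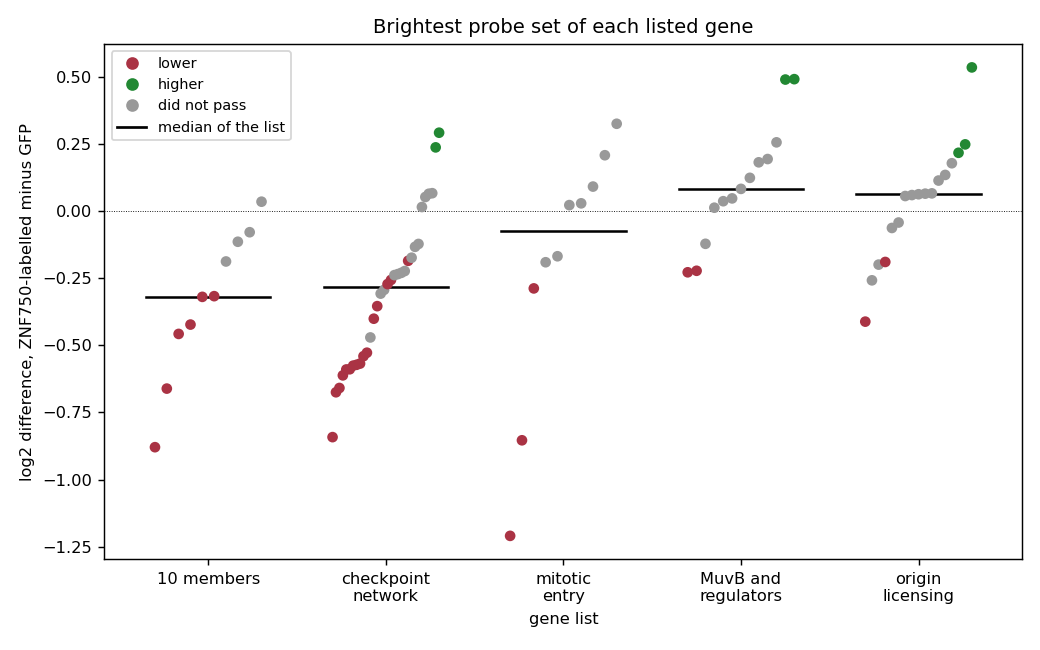
Log2 difference, ZNF750-labelled minus GFP (vertical axis), of the brightest probe set of each gene in 5 lists (horizontal axis); the black line is the list's median. The members (-0.32) and the checkpoint network (-0.28) have medians below 0, and the regulators (0.08) and origin licensing genes (0.06) above it.

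Other cell cycle genes were set beside the members, each read by its brightest probe set. Of all genes read so, 8.75% were lower and 6.39% higher. Of the brighter genes with a promoter in the RefSeq table, 13.7% were lower and 8.72% higher. The counts of the lists below were not tested against these shares. Of 10 mitotic entry genes 3 fell and 0 rose (2 at an unadjusted limma p under 0.05), with a median of -0.07. PKMYT1, a kinase that inhibits CDK1, gave 0.21 ± 0.054 (adjusted p = 0.0502) and passed as higher after cyclic loess, a second quantile normalization and centring on brighter probe sets. MASTL, the Greatwall kinase, gave 0.33 ± 0.11 and passed as higher after the last 2 of these. CCNB1 (-1.21 ± 0.072) and CCNB2 (-0.85 ± 0.063), the B-type cyclins, fell, CCNB1 on both of its probe sets and CCNB2 on 1 of 3. The dimmer CCNB2 probe sets gave -0.24 (adjusted p = 0.201) and 0.02. CCNA2, cyclin A2, fell on both of its probe sets (-0.29 ± 0.058 on the brighter and -0.77 on the other). CDK1, their kinase, gave 0.09 ± 0.056 on its brightest probe set and did not pass, whereas its other 3 probe sets fell (-0.24, -0.34 and -0.69).

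Of 17 genes listed for origin licensing and its control, 2 fell and 3 rose, with a median of 0.06. CDT1, the licensing factor, rose 1.45-fold (0.54 ± 0.050; adjusted p = 0.00143), ORC6 rose (0.25 ± 0.046) and MCM7 rose on 1 of its 2 probe sets (0.22 ± 0.050). ORC4 fell on 1 of its 2 probe sets (-0.41 ± 0.068). GMNN, which inhibits CDT1, was lower (-0.19 ± 0.049; adjusted p = 0.0488) but did not pass after cyclic loess, a second quantile normalization or centring. MCM2 (0.13), MCM3 (0.11), MCM4 (0.06), MCM5 (0.18) and MCM6 (-0.06), helicase subunits, did not pass on their brightest probe sets. Of the other 4 MCM4 probe sets, 1 fell (-0.53 ± 0.11; adjusted p = 0.0252). Under cyclic loess and a second quantile normalization MCM2 and MCM5 passed as higher and MCM6 changed sign; MCM5 also passed with centring.

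Of 13 genes for MuvB subunits and the factors known to act with them on mitotic promoters, 2 fell and 2 rose, with a median of 0.08. After cyclic loess, a second quantile normalization or centring on brighter probe sets the list had 0 lower and 4 higher genes, since FOXM1 and TFDP1 no longer passed and LIN52 and RBL2 passed as higher. LIN37, a MuvB subunit, rose (0.49 ± 0.065) on 1 of its 2 probe sets, and TFDP2 (0.49 ± 0.12) on 1 of 4. FOXM1, the forkhead activator of G2 and mitotic genes, was 1.17-fold lower (-0.22 ± 0.047; adjusted p = 0.0248), and so was TFDP1 (-0.23 ± 0.051), an E2F partner, on its brightest probe set. The other 2 TFDP1 probe sets fell as well (-0.70 ± 0.080 and -0.30 ± 0.072). MYBL2, which works with MuvB as an activator, gave 0.05 ± 0.050, and RBL2, encoding the pocket protein p130 of the repressor form, 0.26 ± 0.071 (adjusted p = 0.0615, and 0.0116 to 0.0191 under the 3 scalings just named).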

How the data were processed

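The authors deposited log2 values for 54675 probe sets, 1 column per array, made with RMA per the submitters' processing notes; not given in the sources used here is its version, and detection calls and probe positions were not used. The method corrects background, quantile normalizes and summarises each probe set, and understates differences of dim genes. Gene symbols are those of the platform's annotation. The 62 control probe sets were left out. The remaining 54613 were fitted together with limma 3.58.1 in R 4.3.3 (lmFit, eBayes with an intensity trend, 2 residual degrees of freedom), with Benjamini-Hochberg adjustment over all of them and calls at an adjusted p under 0.05. A probe set was called dim if its mean lay below the median of all means (5.47). The fit was also run on simulated data with independent noise, which checks the code and does not bear on the calls given here. Lists were read by the brightest probe set with 1 symbol. The members and lists were chosen with earlier results of these data known. Named were all members, ZNF750, up to 5 called genes per list with the largest differences, and pathway neighbours, some of which were chosen after their values were seen. The number of arrays limits the precision. Alternatives covered the variance prior, dim probe sets, probe set choice, scaling, the replicate number as a block, thresholds and each array left out. Sequences are from RefSeq (GRCh38.p14).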

Additional observations from a re-analysis of the deposited data

How the results depend on the processing

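The 12 lower and 0 higher member probe sets, in 8 genes, were the same numbers under cyclic loess, a further quantile normalization, centring on brighter probe sets and with the replicate block. The replicate number was only a number shared between groups: same-numbered arrays' deviations correlated at 0.13 over all probe sets and at 0.26 over both the brighter probe sets and the members, and the labels name nothing that the number marks. With the replicate block 3792 probe sets were lower and 2002 higher over the table. As reported, the table gave 3927 lower and 2348 higher, 62.6% lower; centring on brighter probe sets gave 3589 lower and 4176 higher, 46.2% lower. With dim probe sets left out 14 of 21 member probe sets fell, still in 8 genes (4731 lower in the table). Without the intensity trend 5 member probe sets in 3 genes fell, 754 and 520 probe sets were lower and higher over the table, and 7 and 0 network genes. With 1 probe set per gene, 7 of 10 fell (2013 and 1541 of all genes); with the mean of probe sets, 6 of 10 (1600 and 1043). Without _s_at and _x_at probe sets 6 of 16 fell, in 5 genes (1845 and 1230), and 0 network genes rose. At an adjusted p under 0.01 the table gave 1474 and 704 and the network 10 and 1. With a difference of at least 0.5 required, 6 member probe sets in 3 genes fell (1457 and 961) and 0 network genes rose.

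The median difference of the members (-0.27) was -0.35 with dim probe sets left out, -0.32 with 1 probe set per gene, -0.29 with the mean of probe sets, -0.23 without _s_at and _x_at probe sets, -0.25 under cyclic loess, -0.22 when quantile normalized again and -0.22 when centred on brighter probe sets. With 1 array left out it ran from -0.32 to -0.26, the lower member probe sets from 0 to 7 in 0 to 5 genes, the table from 1 to 661 lower and 8 to 267 higher, and the network from 0 to 9 lower and 0 higher.

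Sign changes concerned uncalled values near 0: BUB3 209974_s_at became -0.0824 as a mean of probe sets, BUB3 201458_s_at 0.00887 under cyclic loess. With 1 array left out BUB3 229827_at ran from -0.13 to 0.0024, BUB1 216275_at from -0.20 to 0.0207 and BUB1 215509_s_at from -0.264 to 0.071.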

Other observations

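The CHR letters found in member promoters were also counted over the genes of the array. Of the genes read by their brightest probe set, 15384 had a promoter in the RefSeq table, and 9.3% of them were called lower and 6.57% higher (limma adjusted p under 0.05). TTTGAA lay on the gene strand within 30 bases of the start in 277 of them, 4 being members (CDCA8, INCENP, BUB1B and MAD2L1). Of these 277, 49 (17.7%) were lower and 10 (3.61%) higher. TTTGAA anywhere in the window on either strand was in 2399 genes, of which 10.2% were lower and 5.79% higher, with a median difference of 0.04. Among genes brighter than the median of the table, 185 had TTTGAA on the gene strand near the start, the 4 members included. Of these, 48 (25.9%) were lower, against 13.5% of the 10168 brighter genes without it there. The median difference was -0.10 with it and -0.00012 without. With TTTGAA anywhere in the window on either strand, 244 of 1420 brighter genes (17.2%) were lower, with a median difference of -0.02. Genes are not independent of each other, so these shares are a description and no test was made.

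Probe sets of 1 gene also disagreed outside the members. ZWILCH, a subunit of the RZZ complex that recruits MAD1 and MAD2, gave 0.07 ± 0.053 on its brightest probe set and -0.56 ± 0.11 (adjusted p = 0.0223) on the other. TPR, a nuclear pore protein that binds MAD1, gave 0.02 ± 0.063 on its brightest probe set and 0.37 ± 0.060 (adjusted p = 0.0091) on the next. MCM10, a replication factor, gave 0.06 ± 0.095 on its brightest and rose on its other 2 probe sets (0.30 and 0.45). ORC5, an origin recognition subunit, fell on another probe set (-0.54) and RBBP4, a MuvB subunit, on 2 others (-0.41 and -0.44), while their brightest did not pass. These genes were chosen after their values were seen.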
